A study of Homo sapiens with 9 samples.

Results

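The 10 genes described here were the 4 EHD genes (EHD1, EHD2, EHD3 and EHD4) and 6 genes of the caveolar coat (CAV1, CAV2, PTRF, SDPR, PRKCDBP and PACSIN2), of 48162 genes in the table. EHD2 was chosen by its measured values, a strong rise with p16 knockdown, and its differences between the groups are therefore given as a description without a test. The other 9 genes were taken because they belong to the same protein family or to the same membrane structure. They and the gene lists below were chosen with earlier results of these data known. In all, 8 of the 10 members passed the filter on low counts and were among the 15776 genes tested. EHD3 and SDPR did not pass it.

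RNA was sequenced from SKMEL28, an established human melanoma cell line, in 3 groups of 3 libraries. All cells were infected with lentivirus carrying short hairpins and then selected for 3 days with puromycin at 1 µg/ml. The shCont cells carried a hairpin against GFP, the shp16 cells a hairpin against p16, and the shp16/shATR cells, the double knockdown, hairpins against both p16 and ATR. Which ATR hairpin was used was not given in the sources used here, and no group carried the ATR hairpin alone. The study's legend for the mRNA of LSS, a cholesterol synthesis gene, names 1 experiment with 3 technical replicates. Its sequencing methods do not give the replicate type. Whether the 3 libraries of a group came from separate cultures is thus not known. Every p-value below measures the spread between libraries and may not cover that between cultures.

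EHD proteins are ATPases with a C-terminal EH domain that bind and reshape membranes. EHD1, EHD3 and EHD4 act mainly in endocytic recycling, whereas EHD2 sits at the neck of caveolae and holds them at the plasma membrane. Caveolae are flask-shaped pits built from caveolins (CAV1 and its partner CAV2) and a coat of cavins (PTRF, or cavin-1, which is needed to form the pit, SDPR, or cavin-2, and PRKCDBP, or cavin-3). PACSIN2 is an F-BAR protein that bends the membrane at the caveolar neck. CAV3, the muscle caveolin, had 0 counts over all 9 libraries.

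Total counts were 17314662 to 23588174 per library. Replicate 1 of shCont and replicate 1 of shp16 stood apart from the other libraries of their groups: the chi-square per degree of freedom over genes was 68.5 and 83.4 for shCont 1 against its partners and 5.15 between those partners, and 37.9 and 37.2 for shp16 1 against its partners and 1.94 between those. CDKN2A, the gene that encodes p16, had 103 to 162 CPM (counts scaled to library size) in shCont and 78.1 to 99.9 in shp16, a log2 fold change of -0.48 that missed the threshold (adjusted p = 0.0723, edgeR quasi-likelihood test with Benjamini-Hochberg adjustment, as are all adjusted p-values below) and was -0.26 (adjusted p = 0.0673) without shCont 1, its highest library. It was lower in shp16/shATR than in shCont (-0.57, adjusted p = 0.0263), a call lost without each one of the 3 shp16/shATR libraries, and -0.35 (adjusted p = 0.0159) without shCont 1. The row is for the whole locus, which also has transcripts that do not encode p16. ATR was at 45.9 to 96.4 CPM in shCont, 83.4 to 93.5 in shp16 and 39.9 to 41.0 in the double knockdown. Of the shCont libraries, shCont 1 was close to the knockdown level. The ATR log2 fold change in shp16/shATR against shCont was -0.96, and -1.24 without shCont 1. The ATR difference between shp16/shATR and shp16 was -1.12 on the log2 scale (adjusted p = 0.0128), a call lost in 4 of the 9 fits that left out a library (shp16 1, with an adjusted p of 0.0573, or shp16/shATR a, b or c). All 8 melanocyte markers were detected, whereas all 5 endothelial markers in the table, from a cell type rich in caveolae, stayed under 1 FPKM (fragments per kilobase, scaled to depth) in every library, with a summed FPKM of 0.709 to 0.870 in shCont, 0.778 to 0.879 in shp16 and 0.838 to 1.04 in the double knockdown. Of the fibroblast markers, 5 of 6 stayed under 1 FPKM, and LUM was at 8.12 to 14.6. All 5 leukocyte markers stayed under 1 FPKM and 2 of them, PTPRC and CD3E, were at 0.

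The start regions of 3 EHD genes are shown because these genes span the range of the family, from near 0 to the highest level, although their promoters were similar in composition. Of the 10 members, 8 had a promoter window in the RefSeq table (GRCh38.p14, 250 bases before to 50 after the start). The capitals mark CpG pairs, and each window is written 5′ to 3′ on the strand of the gene. The EHD2 window is chr19:47713172-47713471 on the plus strand, the EHD3 window chr2:31233902-31234201 on the plus strand, and the EHD4 window chr15:41972508-41972807 on the minus strand.
EHD2: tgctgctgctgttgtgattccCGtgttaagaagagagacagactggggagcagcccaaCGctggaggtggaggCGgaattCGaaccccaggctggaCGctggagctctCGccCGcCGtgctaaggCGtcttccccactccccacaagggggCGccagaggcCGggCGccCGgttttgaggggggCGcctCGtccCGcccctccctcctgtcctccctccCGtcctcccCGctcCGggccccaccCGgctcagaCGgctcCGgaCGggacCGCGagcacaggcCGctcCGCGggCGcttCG
EHD3: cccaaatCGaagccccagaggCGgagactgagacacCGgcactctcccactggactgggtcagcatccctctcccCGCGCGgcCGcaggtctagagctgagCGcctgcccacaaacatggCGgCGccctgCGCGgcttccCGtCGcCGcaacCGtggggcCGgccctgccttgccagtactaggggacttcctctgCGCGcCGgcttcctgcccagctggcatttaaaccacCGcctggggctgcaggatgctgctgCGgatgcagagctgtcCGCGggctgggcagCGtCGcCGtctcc
EHD4: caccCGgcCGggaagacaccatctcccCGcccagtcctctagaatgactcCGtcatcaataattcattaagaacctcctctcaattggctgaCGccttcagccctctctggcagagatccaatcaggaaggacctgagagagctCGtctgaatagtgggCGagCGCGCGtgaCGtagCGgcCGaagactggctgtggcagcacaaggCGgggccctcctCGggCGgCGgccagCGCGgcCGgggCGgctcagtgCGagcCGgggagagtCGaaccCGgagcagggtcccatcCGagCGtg

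The EHD2 window held 30 CpG pairs, the EHD3 window 27 and the EHD4 window 27, above the upper quartile of 28 for EHD2 and just under it for the other two, among 35116 windows with a median of 14. The motif GGGCGG, searched on both strands, occurred once in the EHD2 window, 3 times in the EHD4 window and not in the EHD3 window, and 45% of all windows held it. TATAAA (in 11.5% of all windows), TGACTCA (4.95%), CACGTG (7.26%), CATGTG (11.1%) and GGAATG (14%) were not found in any of the 3 windows. The first CAV1 window held 19 CpG pairs and the SDPR window 5. The table of counts gave EHD2 as ENSG00000024422 on chromosome 19 from 48216600 to 48246391, in an older build than the promoter table, so the coordinates are not interchangeable.

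The EHD genes are paralogs, and the stretch of coding sequence that each shares with EHD2 bears on whether reads of one could be counted for another. Over aligned coding bases (GENCODE 29, longest coding transcript), EHD2 was 77.0% identical to EHD1, 74.8% to EHD3 and 73.3% to EHD4. The longest run of identical bases was 29 with EHD1, 26 with EHD3 and 32 with EHD4, and the last of these lies at coding bases 925 to 956 of EHD2.
EHD2 and EHD4: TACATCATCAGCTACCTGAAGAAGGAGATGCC
EHD1 and EHD3 shared a longer run of 54 bases. A read with a longer exact match than these runs belongs to 1 gene of the pair.

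EHD2, the caveolar neck ATPase, had few counts in control cells and many in both knockdown groups. It had 31, 22 and 17 counts in the shCont libraries 1, 2 and 3, against 541, 505 and 450 in the shp16 libraries and 458, 620 and 663 in the shp16/shATR libraries. The lowest knockdown library thus held many times the counts of the highest control library, and neither knockdown group overlapped with the control group. In CPM, EHD2 was at 1.12 ± 0.26 (SD, n = 3) in shCont, 24.7 ± 3.14 in shp16 and 29.1 ± 4.25 in the double knockdown. The fitted difference from shCont was 4.45 on the log2 scale in shp16 (21.8-fold, the 25th largest rise of 15776 genes) and 4.69 in shp16/shATR (25.7-fold, the 23rd largest). These values chose the gene and were not tested. Without shCont 1, the library with the most EHD2 counts of its group, the differences were 4.63 and 4.87. Because EHD2 was so low in shCont, its log2 difference depends on the scale: on log2(FPKM + 1) it was 2.58 in shp16 and 2.79 in the double knockdown.

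EHD2 was high in both knockdown groups, and these groups overlapped. The difference between shp16/shATR and shp16 was 0.24 on the log2 scale. It is a description only, since the shp16 values are among those that chose the gene. The estimate lay between 0.11 and 0.35 over 21 alternative settings, of which those that only change the threshold repeat the main fit. These values do not show that the levels were equal.

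Some epithelial markers differed between the same groups. The summed FPKM of 6 epithelial markers was 5.26 to 9.06 in shCont, 16.4 to 21.0 in shp16 and 16.8 to 18.0 in the double knockdown. KRT18, a keratin, was at a mean of 5.15, 13.8 and 11.6 FPKM in these groups, and CDH1, which encodes E-cadherin, at 0.494, 3.65 and 4.45. Both were higher in shp16 than in shCont, KRT18 by 1.42 on the log2 scale (SE 0.23, adjusted p = 0.00183) and CDH1 by 2.90 (SE 0.18, adjusted p = 1.44e-06), without each of the 9 libraries as well. EPCAM, KRT19 and CLDN4 stayed under 1 FPKM in every library. The summed FPKM of the melanocyte markers was 4843 to 5455 in shCont, 2558 to 4757 in shp16 and 4014 to 4931 in the double knockdown. PMEL gave most of this sum, with a mean of 3269, 2305 and 2666 FPKM in these groups and a wide spread, from 1109 to 3490, over the libraries. The means were 143, 150 and 130 for MITF, 304, 309 and 292 for SOX10, and 327, 347 and 409 for MLANA. For S100B they were 583, 365 and 582, and for DCT 392, 377 and 310. For TYR they were 133, 117 and 126, and for TYRP1 47.1, 34.8 and 18.9. The part of these differences in the EHD2 result was not tested, and in bulk RNA a change in the number of cells that use a gene and a change in RNA per cell cannot be told apart.

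**Figure D1:**
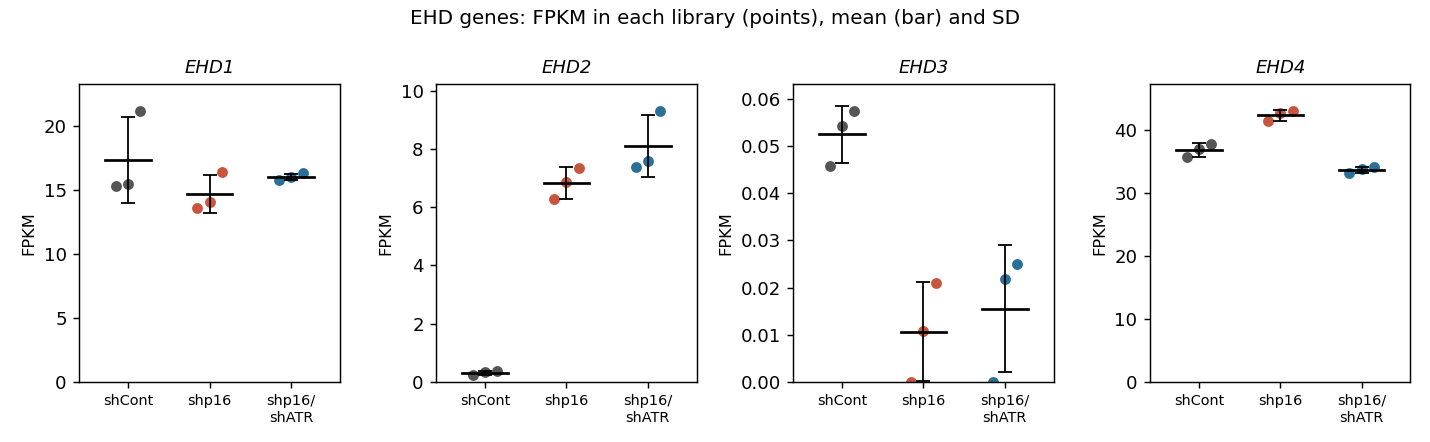
FPKM of EHD1, EHD2, EHD3 and EHD4 (vertical axis, a separate scale from 0 for each gene) in the shCont, shp16 and shp16/shATR libraries; points are libraries, bars the mean and the SD of 3. EHD2 is at 0.239 to 0.367 in shCont and at 6.28 to 9.31 in the knockdown libraries, whereas EHD1 overlaps between the groups and EHD3 stays under 0.06.

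The other EHD genes did not share the EHD2 pattern. EHD1, which acts in recycling from endosomes, had 2279, 1310 and 1397 counts in shCont, 1532, 1318 and 1238 in shp16, and 1262, 1640 and 1474 in the double knockdown. The shCont 1 library was high and the groups overlapped in every comparison (log2 fold change -0.23, SE 0.16, adjusted p = 0.366 in shp16 against shCont). Without shCont 1, the value was -0.03 (adjusted p = 0.873).

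EHD4, the EHD gene with the highest level per length in all 3 groups, had 3200, 2503 and 2547 counts in shCont, 3053, 3188 and 3069 in shp16, and 2104, 2788 and 2371 in the double knockdown. Scaled to depth, it was at 132 ± 7.81 CPM in shCont, 153 ± 4.79 in shp16 and 121 ± 0.461 in the double knockdown (SD, n = 3), and no pair of groups overlapped. The difference did not pass the test in shp16 against shCont (0.21, SE 0.09, adjusted p = 0.157) or in shp16/shATR against shp16 (-0.34, SE 0.09, adjusted p = 0.0556). Of the fits that left out a library, both passed only without shCont 1, at 0.25 (adjusted p = 0.0142) and -0.33 (adjusted p = 0.00192). In that fit 26.6% and 20.5% of all genes were called in these comparisons. Without shp16 1 the values were 0.18 (adjusted p = 0.29) and -0.30 (adjusted p = 0.128).

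EHD3 had 5 counts in each shCont library, 0, 2 and 1 in shp16, and 2, 0 and 2 in the double knockdown. These counts are too few for a comparison, and EHD3 was not tested.

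EHD2 made up a larger share of the family in the knockdown libraries. It gave 0.618%, 0.620% and 0.465% of the summed FPKM of the 4 EHD genes in shCont, 11.3%, 10.7% and 10% in shp16, and 12.9%, 13.2% and 15.8% in the double knockdown. The mean share was 3.31 percentage points higher in the double knockdown than in shp16, a description only, since the shp16 values are among those that chose the gene. EHD4 gave 67.7% ± 3.64, 66.3% ± 2.49 and 58.2% ± 1.58 in shCont, shp16 and shp16/shATR, and EHD1 gave 31.7% ± 3.62, 23.0% ± 1.92 and 27.8% ± 0.230 (SD, n = 3). The summed FPKM of the family was 54.5 ± 4.24 in shCont, 63.8 ± 1.29 in shp16 and 57.8 ± 0.876 in the double knockdown.

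**Figure D2:**
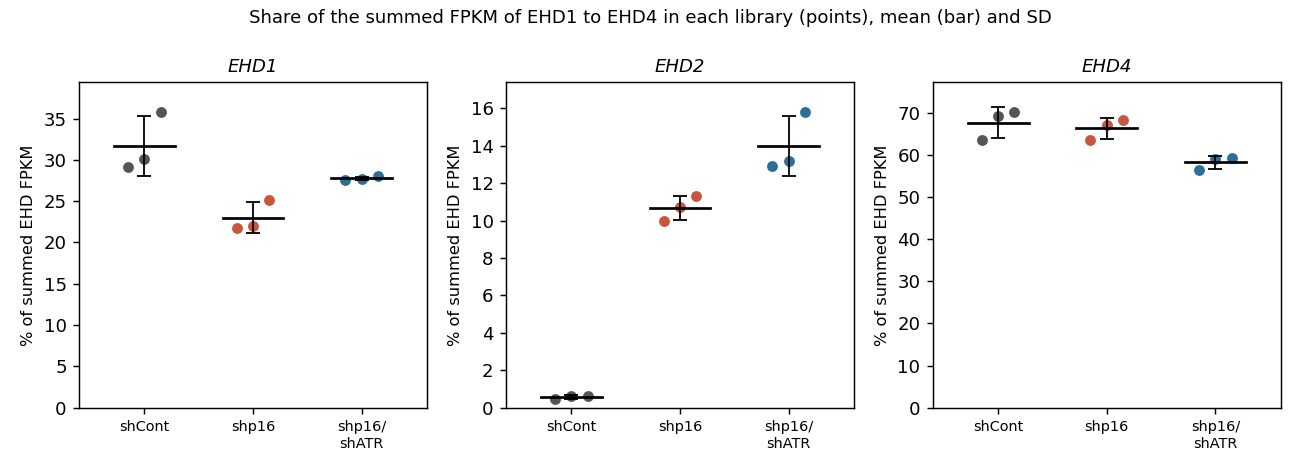
Share (%) of the summed FPKM of EHD1 to EHD4 that came from EHD1, EHD2 and EHD4, by group; points are libraries, bars the mean and the SD of 3, and each vertical axis starts at 0. The EHD2 share is under 1% in the 3 shCont libraries, 10% to 11.3% in shp16 and 12.9% to 15.8% in the double knockdown, and EHD4 remains the largest share throughout.

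Of the caveolar coat, CAV1 was the member called against control cells. CAV1, the main structural protein of caveolae, had 1707, 1515 and 1470 counts in shCont, 1809, 1922 and 1908 in shp16, and 2028, 2717 and 2226 in the double knockdown. Scaled to depth, it was at 75.6 ± 2.20 CPM in shCont, 92.7 ± 1.43 in shp16 and 116 ± 1.87 in the double knockdown (SD, n = 3), and no pair of groups overlapped. CAV1 rose in shp16/shATR against shCont by 0.62 on the log2 scale (SE 0.09, adjusted p = 0.000561), and this call held without each of the 9 libraries in turn.

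The smaller CAV1 differences were close to the threshold. In shp16 against shCont it rose by 0.30 (SE 0.09, adjusted p = 0.048), but the call was lost in 8 of the 9 fits that left out a library, with an adjusted p of 0.0993 without shp16 1, and it held only without shCont 1 (adjusted p = 0.00746). Between shp16/shATR and shp16 the difference was 0.33 (SE 0.09, adjusted p = 0.0545). Of the fits that left out a library, it passed only in that without shCont 1 (adjusted p = 0.00191). The size of the difference moved little, between 0.27 and 0.32 in the first comparison and between 0.31 and 0.34 in the second, as each library was left out.

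CAV2, which assembles with CAV1, was not called in any comparison. It had 1005, 892 and 939 counts in shCont, 786, 870 and 875 in shp16, and 823, 950 and 866 in the double knockdown, with overlap between shp16/shATR and each other group (log2 fold change -0.14, SE 0.10, adjusted p = 0.385 in shp16 against shCont). The ratio of CAV1 to CAV2 FPKM, chosen after the values were seen and therefore not tested, was 2.02 ± 0.0937 in shCont, 2.72 ± 0.0772 in shp16 and 3.21 ± 0.250 in the double knockdown (SD, n = 3). The groups did not overlap in this ratio. The genes lie on the same chromosome and strand, CAV2 from 115927434 to 116148595 and CAV1 from 116164839 to 116201233 of chromosome 7, as the table gives them.

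**Figure D3:**
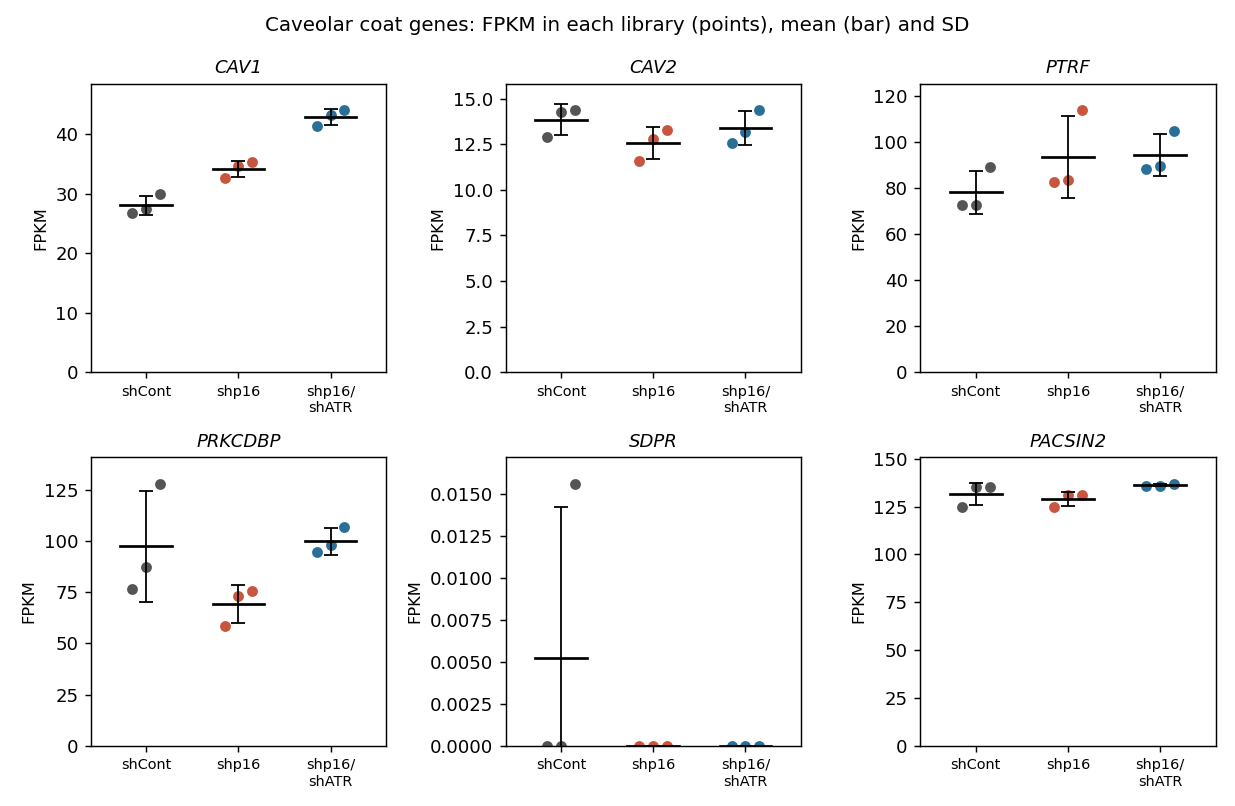
FPKM of CAV1, CAV2, PTRF, PRKCDBP, SDPR and PACSIN2 (vertical axis, a separate scale from 0 for each gene) in the 3 groups; points are libraries, bars the mean and the SD of 3. CAV1 is at 26.8 to 29.9 in shCont, 32.6 to 35.3 in shp16 and 41.4 to 44.1 in the double knockdown, whereas CAV2 overlaps between the groups and SDPR is at 0 in 8 of the 9 libraries.

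Among the cavins, PTRF was abundant, PRKCDBP varied and SDPR was nearly absent. PTRF had 8049, 5214 and 5521 counts in shCont, 8937, 6499 and 6411 in shp16, and 5951, 7696 and 7976 in the double knockdown. Replicate 1 was the highest library of both shCont and shp16, the groups overlapped, and no comparison passed the test (0.27, SE 0.17, adjusted p = 0.33 in shp16 against shCont). That value was 0.04 (adjusted p = 0.891) without shp16 1 and 0.41 (adjusted p = 0.0895) without shCont 1.

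PRKCDBP had 3558, 1926 and 1789 counts in shCont, 1414, 1760 and 1781 in shp16, and 1990, 2848 and 2204 in the double knockdown. The shp16 libraries were the lowest in CPM and overlapped with neither of the other groups, but the differences did not pass the test (-0.50, SE 0.18, adjusted p = 0.0856 against shCont, and 0.53, SE 0.18, adjusted p = 0.119 for shp16/shATR against shp16). The library shCont 1, at 157 CPM against a lowest value of 89.4 in its group, decided the first value, which was -0.22 without it. Without shCont 1, PRKCDBP was higher in shp16/shATR than in shp16 (adjusted p = 0.000523) and than in shCont (0.31, adjusted p = 0.0142). In that fit 20.5% and 34.1% of all genes were called in these comparisons. No other fit that left out a library called either difference. Without shp16 1 the first was 0.47 (adjusted p = 0.29), and the second ranged from -0.13 to 0.31 as each library was left out.

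SDPR had 1 count, in shCont 3, over all 9 libraries, and was not tested. The ratio of PRKCDBP to PTRF FPKM, not tested, was 1.23 ± 0.194 in shCont, 0.768 ± 0.219 in shp16 and 1.07 ± 0.154 in the double knockdown (SD, n = 3).

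PACSIN2 was the member with the highest level per length in every group, at a mean of 132 FPKM in shCont, 129 in shp16 and 136 in the double knockdown. Its 3 fitted differences lay between -0.02 and 0.07 and none passed the test. The gene overlaps ARFGAP3 on the same strand, which had 17855 counts in all against 78631 for PACSIN2, so the division of reads between them is uncertain. The other overlaps of the members were with genes of at most 83 counts in all, and the gene that overlaps EHD2 had 11.

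Per length, the order of the members was stable except around the cavins and CAV1. In shCont, the mean FPKM fell from PACSIN2 (132) through PRKCDBP (97.6), PTRF (78.1), EHD4 (36.8), CAV1 (28), EHD1 (17.3) and CAV2 (13.9) to EHD2 (0.311), EHD3 (0.0525) and SDPR (0.0052). The ranges of PACSIN2, PRKCDBP and PTRF overlapped between neighbours in this order, and those of the other neighbours did not. EHD2 kept the 8th place in shp16 (6.83) and in shp16/shATR (8.09), below CAV2 (12.6 and 13.4) and far above EHD3. CAV1 passed EHD4 in shp16/shATR, with 43.0 against 33.6 FPKM. For each CAV1 FPKM there was 0.0111 ± 0.00249 FPKM of EHD2 in shCont, 0.201 ± 0.0239 in shp16 and 0.189 ± 0.0309 in the double knockdown (SD, n = 3).

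**Figure D4:**
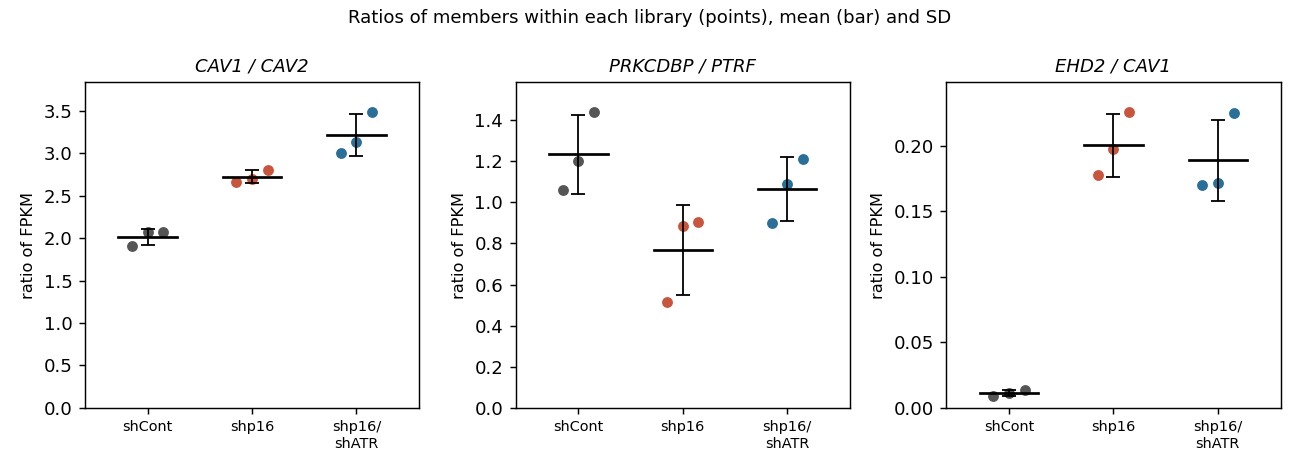
Ratio of FPKM of CAV1 to CAV2, PRKCDBP to PTRF and EHD2 to CAV1 (vertical axes from 0) by group; points are libraries, bars the mean and the SD of 3. The CAV1 to CAV2 ratio is 1.91 to 2.07 in shCont, 2.66 to 2.81 in shp16 and 3.01 to 3.49 in the double knockdown, and the EHD2 to CAV1 ratio overlaps between the knockdown groups.

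The members called were counted beside the share of all genes called. In shp16 against shCont, 1 of the 7 tested members other than EHD2 was called, CAV1, which was higher, where 14.8% of all genes were called (7.23% higher and 7.59% lower). The median log2 fold change of the 7 was -0.02, and that of all genes was -0.02. In shp16/shATR against shp16, none of the 7 tested members other than EHD2 was called by edgeR, where 6.22% of all genes were called (2.73% higher and 3.49% lower). Here EHD4, CAV1 and PRKCDBP had an unadjusted p under 0.05 (0.00377, 0.00366 and 0.0136), DESeq2 called 2 of them, CAV1 higher and EHD4 lower, where it called 9.56% of all genes, and without shCont 1 edgeR called all 3, where it called 20.5% of all genes. Between shp16/shATR and shCont, CAV1 was again the 1 member called of 7, where 23.6% of all genes were called (10.9% higher and 12.7% lower). No share of all genes is given for the unadjusted p. The comparisons share libraries and are not independent of each other.

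**Figure D5:**
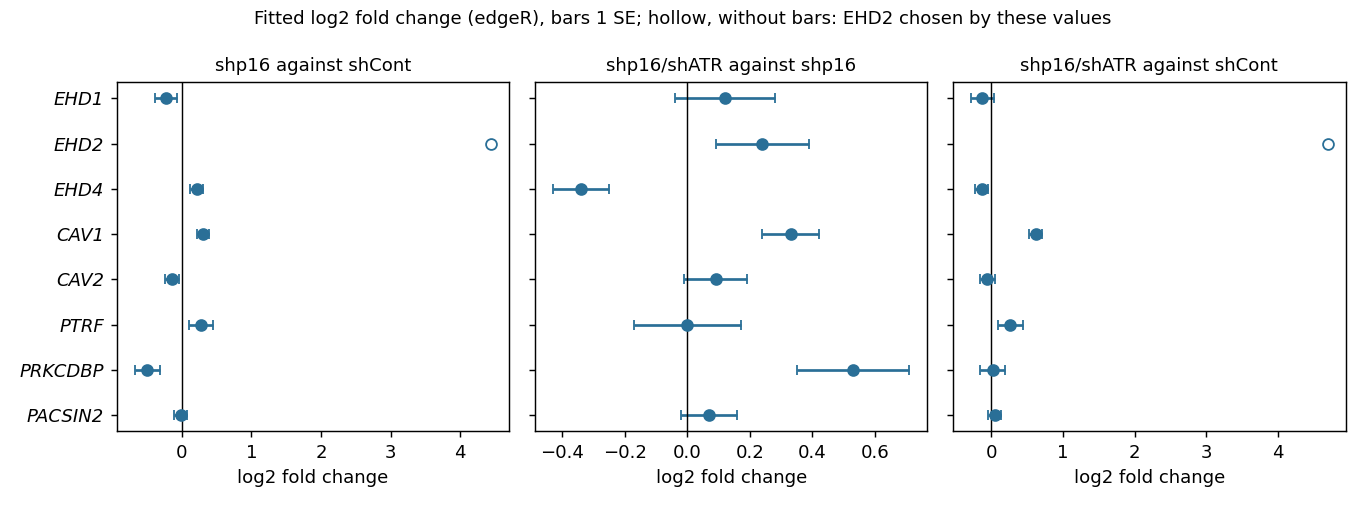
Fitted log2 fold change (horizontal axis, with a wider scale in the outer panels) of the 8 tested members in shp16 cells against control cells and in double knockdown cells against each of the other groups; bars span 1 SE to each side, and hollow points without bars are the EHD2 values that chose the gene. EHD2 lies at 4.45 and 4.69 against shCont, and the other members lie between -0.50 and 0.62 in all panels. The EHD2 point of shp16/shATR against shp16, drawn with bars, also uses shp16 values that chose the gene.

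The genes around EHD2 on chromosome 19 were not called higher with p16 knockdown. The nearest tested genes were GLTSCR1 and NAPA, a membrane fusion adaptor, before EHD2, and GLTSCR2 and SEPW1, a selenoprotein, after it. GLTSCR2, which begins 2388 bases after the end of EHD2, was at 248 to 423 CPM in shCont, 250 to 336 in shp16 and 248 to 282 in the double knockdown (log2 fold change -0.14, SE 0.20, adjusted p = 0.694 in shp16 against shCont). GLTSCR1, which ends 10067 bases before EHD2, differed by -0.06 (SE 0.13, adjusted p = 0.809) and NAPA by -0.15 (SE 0.16, adjusted p = 0.559). SEPW1 was lower in shp16 than in shCont (log2 fold change -0.75, SE 0.20, adjusted p = 0.0294), with 32.4 to 43.7 against 51.1 to 92.7 CPM. Without shCont 1 its value was -0.43 (adjusted p = 0.0124), and without shp16 1 the call was lost (adjusted p = 0.112), as in 3 more of the 9 fits that left out a library.

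The genes whose level followed EHD2 most closely over the 9 libraries were CTBP2 (Pearson r = 0.996 of log2 CPM), ZNF468 (0.993), ZNF320 (0.993), ARRB1 (0.993) and FECH (0.992), of 10736 genes compared. These 9 points come from 3 groups, so the values describe the step between the control and the knockdown groups. CTBP2, a transcriptional corepressor, went from 73.5 CPM in shCont to 112 in shp16 and 115 in the double knockdown, and ARRB1, which encodes a beta-arrestin, from 18.0 to 43.5 and 45.5. The zinc finger genes ZNF468 and ZNF320, also on chromosome 19, were at 0 to 0.0514 and 0 to 0.0884 CPM in shCont and at 7.16 to 8.53 and 8.67 to 11 in shp16. FECH, the last enzyme of heme synthesis, was at 20.8, 33.6 and 36.3 CPM. Of the other members, CAV1 was most like EHD2 (r = 0.87), then PTRF (0.58), and CAV2 was the least (-0.55). These values too describe the step between the groups, and no background of all genes is given for them.

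Lists of related genes were counted beside the same shares of all genes, 14.8% in shp16 against shCont, 6.22% in shp16/shATR against shp16 and 23.6% in shp16/shATR against shCont. With DESeq2 these shares were 18.6%, 9.56% and 26.5%, and with edgeR without shCont 1 they were 26.6%, 20.5% and 34.1%. No share of all genes is given at an unadjusted p under 0.05. List counts at that level therefore have no background here and cannot show whether a list stood out. Of 9 EHD partners tested, 1 was higher and 1 lower in shp16 than in shCont. ZFYVE20, an effector of early endosome GTPases, was higher (0.59, SE 0.13, adjusted p = 0.01) and RAB11FIP5, a recycling adaptor, was lower (-0.39, SE 0.11, adjusted p = 0.0294). Against shCont, RAB11FIP5 in shp16/shATR was lower again (-0.64, SE 0.11, adjusted p = 0.00119) and EHBP1L1, an EH domain binding protein, was higher (0.69, SE 0.11, adjusted p = 0.0009). The RAB11FIP5 call in shp16 was lost in 5 of the 9 fits that left out a library (shCont 2, shp16 2 or 3, or shp16/shATR a or b), and the other calls of this list held in all 9. Between shp16/shATR and shp16, edgeR called 0 of the 9, with 5 at an unadjusted p under 0.05, DESeq2 called 3, and edgeR called 4 without shCont 1.

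Of 7 other caveolar genes tested, 2 were higher in shp16 than in shCont and 0 were lower. ROR1, a receptor-like kinase known to bind caveolar proteins, was at 20.9 ± 2.78 CPM in shp16 and 7.30 ± 1.65 in shCont (1.52, SE 0.17, adjusted p = 0.000148), and FLNA, which links caveolae to actin, was at 3465 ± 499 and 2027 ± 39.0 CPM (SD, n = 3; 0.77, SE 0.13, adjusted p = 0.00205). Both were also higher in shp16/shATR than in shCont, by 1.51 (adjusted p = 9.55e-05) and 0.50 (adjusted p = 0.0151), and PACSIN3, a relative of PACSIN2, was lower (-0.53, SE 0.17, adjusted p = 0.0439). The PACSIN3 call was lost without shCont 1 (-0.30, adjusted p = 0.0706) and in 6 of the 9 fits in all, and that of FLNA in shp16/shATR without library a or c of that group. Between shp16/shATR and shp16, edgeR called 0 of the 7, with 3 at an unadjusted p under 0.05, DESeq2 called 1, and edgeR called 3 without shCont 1. CAV3, PACSIN1 and NOS3 were too low to test. FLOT2, one of the 2 flotillins, which form flat membrane domains without caveolae, was higher in shp16 (0.65, SE 0.15, adjusted p = 0.0153) and in shp16/shATR (0.70, SE 0.15, adjusted p = 0.00614) than in shCont, and the first of these calls was lost without shp16 1 (0.49, adjusted p = 0.0613) or shCont 2. Neither flotillin was called between shp16/shATR and shp16, with 0 at an unadjusted p under 0.05 and 0 with DESeq2.

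Of 7 other EH domain genes, edgeR called 0 in shp16 against shCont (2 at an unadjusted p under 0.05, 1 with DESeq2, 2 without shCont 1) and 0 in shp16/shATR against shp16 (0 at an unadjusted p under 0.05 and 0 with DESeq2). REPS2 was higher in shp16/shATR than in shCont (0.54, SE 0.16, adjusted p = 0.0332), a call lost in 5 of the 9 fits that left out a library, among them that without shCont 1 (0.45, adjusted p = 0.0512). Of 13 recycling GTPases, RAB8B was higher in shp16 than in shCont (0.83, SE 0.16, adjusted p = 0.00464) and RAB5C, a GTPase of early endosomes, was lower in shp16/shATR than in shCont (-0.39, SE 0.13, adjusted p = 0.0465). The RAB8B call held without each library, and that of RAB5C was lost in 7 of the 9 fits. Without shCont 1, 3 of the 13 were called in each of these comparisons. For shp16/shATR against shp16, edgeR called 0 of the 13, with 2 at an unadjusted p under 0.05, 0 with DESeq2 and 2 without shCont 1. Of 13 clathrin and AP2 genes, the adaptor subunit AP2B1 (0.54, SE 0.15, adjusted p = 0.0294) and the epsin EPN2 (0.57, SE 0.12, adjusted p = 0.00791) were higher in shp16 than in shCont, and without shCont 1 the number called was 6. The AP2B1 call was lost in 5 of the 9 fits that left out a library, with 0.36 (adjusted p = 0.105) without shp16 1, and the EPN2 call in 0. EPN1 was lower in shp16/shATR than in shp16 (-1.12, SE 0.20, adjusted p = 0.00884), at 80.7 ± 3.97 against 175 ± 29.7 CPM (SD, n = 3), a call lost without shp16/shATR b, and without shCont 1 the number called was 4. Set against shCont, shp16/shATR had 3 of the 13 lower, among them EPN1 (-1.29, SE 0.21, adjusted p = 0.000936) and AP2S1 (-0.76, SE 0.18, adjusted p = 0.0116; -0.45 without shCont 1), where 7 were called without shCont 1. The AP2S1 call was lost without shp16/shATR b.

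Of the 7 dynamin family GTPases, edgeR called 0 in shp16 against shCont (0 at an unadjusted p under 0.05, 0 with DESeq2 and 1 without shCont 1). MFN2, which fuses mitochondria, was the 1 gene of this list called between shp16/shATR and shp16, where it was lower (-0.80, SE 0.13, adjusted p = 0.00512), and without shCont 1 the number called was 5. In shp16/shATR against shCont, 4 of the 7 were called, beside 23.6% of all genes. Of these, 3 were lower, with OPA1 at -0.74 (SE 0.16, adjusted p = 0.00576) and MFN2 at -0.61 (SE 0.13, adjusted p = 0.00627), and DNM1, the dynamin of synaptic uptake, was higher (1.62, SE 0.30, adjusted p = 0.00237) at 2.15 ± 0.132 against 0.703 ± 0.219 CPM (SD, n = 3). OPA1 and MFN2 act in mitochondria, and the 4 calls named here held without each of the 9 libraries.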

How the data were processed

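RNA of SKMEL28 cells was sequenced in 9 libraries, and the authors deposited a count table and, for the same genes, FPKM values, with 48162 genes. The submitters' processing notes name GRCh38, STAR 2.6.1 and DESeq2 2, without roles; the coordinates in the table do not match GRCh38, since the highest end on chromosome 1 is 249231242 and that of GENCODE 29 on GRCh38 is 248937043. The counting settings and strand handling were not given in the sources used here. The study names technical replicates of 1 experiment for its LSS mRNA values only, and its sequencing methods do not give the replicate type. The count columns of shp16/shATR carry no replicate number.

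Members and gene lists were chosen with earlier results of these data known. The deposited counts were tested with edgeR 4.0.16 (R 4.3.3; TMM, filterByExpr with a minimum count of 10, quasi-likelihood test, 1 fit over all 9 libraries), with an adjusted p threshold of 0.05. The deposited FPKM served for levels, shares and ratios, and for limma 3.58.1 on log2(FPKM + 1) as an alternative; DESeq2 1.42.0 was another. The tests were checked on counts simulated with less spread between libraries than in these data and with no library that stood apart. The check thus does not cover libraries such as shCont 1 and shp16 1. Depth was 17314662 to 23588174 counts per library. Differences of EHD2, the gene chosen by its values, are given without a p in every comparison. A planned exact permutation test of its share between the knockdown groups cannot go below p = 0.1 with 3 against 3 libraries and is not used.

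Named genes were the 10 members, CDKN2A and ATR, up to 2 rises and 2 falls per list and comparison with a mean CPM of at least 1, the 2 nearest tested genes on each side of EHD2, and the 5 genes most correlated with it at a mean CPM of at least 5. Marker genes and CAV3, PACSIN1, NOS3 and ARFGAP3 are named as context. Libraries left out of a fit are named by group and replicate, where a, b and c name the shp16/shATR columns from left to right.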

Additional observations from a re-analysis of the deposited data

How the results depend on the processing

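The p-values rest on libraries that may be technical replicates of 1 experiment, and genes with few counts, such as EHD3 and SDPR, could not be compared at this depth. The EHD2 differences describe values that chose the gene, and settings that only change the threshold repeat the main fit. Over the alternatives they were 2.58 to 4.63 in shp16 against shCont and 2.79 to 4.87 in shp16/shATR against shCont. Between shp16/shATR and shp16 the difference was 0.11 to 0.35 as each library was left out.

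In shp16 against shCont, the count of members called was 1, with 0 called at an adjusted p under 0.01, with a log2 fold change of at least 1, with upper-quartile normalization, with library size only, with only the 2 groups compared, and with shp16 replicates 2 and 3 summed (chosen after seeing the data), and 0 to 2 as each library was left out. The share of all genes called was 6.3% at adjusted p under 0.01 and 4.94% with the fold threshold. It was 15.2% with upper-quartile normalization, 13.3% with library size only, 7.83% with only the 2 groups and 8.64% with the summed replicates. As each library was left out, it was 8.58% to 26.6%. The single call was PRKCDBP, lower, and not CAV1, when no filter was used or without shCont 3, where 9.93% and 14.7% of all genes were called. Over all genes the count was 2339, and 994, 779, 1186 and 1363 at adjusted p under 0.01, with the fold threshold, with only the 2 groups and with the summed replicates, and 1353 to 4189 as each library was left out, the highest without shCont 1.

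In shp16/shATR against shp16, 0 members were called, and 2 with DESeq2, 1 with upper-quartile normalization, 1 with library size only, 1 with no filter, 2 with at least 10 counts in every library, 3 with only the 2 groups, 2 with limma on log2(FPKM + 1) and 2 on log2(FPKM + 0.1), and 0 to 3 as each library was left out. The share of all genes called was 9.56% with DESeq2, 6.24% with upper-quartile normalization and 5.71% with library size only. It was 4.39% with no filter, 7.64% with at least 10 counts in every library and 18.9% with only the 2 groups. With limma it was 5.71% on log2(FPKM + 1) and 5.1% on log2(FPKM + 0.1). As each library was left out, it was 1.89% to 20.5%. Over all genes the count was 981, and 309, 165, 1508, 2878 and 399 at adjusted p under 0.01, with the fold threshold, with DESeq2, with only the 2 groups and with the summed replicates, and 298 to 3230 as each library was left out, the highest without shCont 1. In shp16/shATR against shCont, 1 member was called, and 0 with the fold threshold and 1 to 2 as each library was left out. The share of all genes called was 7.47% with the fold threshold and 14.8% to 34.1% as each library was left out. Over all genes the count was 3724, and 1974 and 1178 at adjusted p under 0.01 and with the fold threshold, and 2341 to 5386 as each library was left out. The cause of these differences was not tested.

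Differences near 0 changed sign. PTRF in shp16/shATR against shp16 was -0.01 with no filter, -0.0018 with only the 2 groups and -0.10 with the summed replicates, and -0.10 to 0.23 as each library was left out. Against shCont, PRKCDBP in shp16/shATR was -0.0031 with upper-quartile normalization and -0.13 to 0.31 as each library was left out, EHD1 was -0.22 to 0.09 and CAV2 -0.09 to 0.01.

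The replicate numbers were not taken to pair the libraries: the correlations of same-numbered libraries were -0.12, 0.04 and -0.18 between shp16 and shCont. With the replicate number as a block, 0 members and 423 genes (2.79% of 15153) were called in shp16 against shCont from counts. With limma on log2(FPKM + 1), 0 members and 1513 genes (9.59%) were called. In shp16/shATR against shp16 the limma fit with the block called 0 members and 481 genes (3.05%).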
